A study of Homo sapiens with 6 samples.

Results

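The members were the 6 human genes of DNA topoisomerases, *TOP1*, *TOP1MT*, *TOP2A*, *TOP2B*, *TOP3A* and *TOP3B*, together with *MKI67*, the gene of the proliferation antigen Ki-67. They were taken by symbol from the CPM table, which holds 21625 genes, and all 7 were found. CPM are the reads of a gene relative to those of its library, with a further scaling by library that the deposited values carry. All 7 passed the minimum mean of 1 CPM that 13536 genes reached. CHL-1 cells, an established melanoma line that carries the *EWSR1::CREM* fusion gene in every group, were transfected with 50 nM of CREM siRNA, a pool against the DNA-binding part of *CREM*, or with Control siRNA, a mix of non-targeting siRNAs, and RNA was taken after 48 h. mRNA sequencing gave 3 libraries with CREM siRNA (labelled as CREM knockdown) and 3 with Control siRNA (labelled WT). The fusion and wild-type *CREM* were silenced together, and the cells are of a single line.

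*CREM*, the target of the siRNA, was at 14.8, 16.9 and 15.5 CPM with CREM siRNA, against 268, 286 and 287 CPM with Control siRNA, which left 5.62% of the Control siRNA mean. The libraries held 17221794 to 29793837 reads of genes, as recovered from the CPM values. *SOX10* and *S100B*, genes of the neural crest lineage, were present in all libraries, and the pigment cell genes *MLANA* and *TYR* had 0 CPM in 4 of the 6 libraries each, all but the replicates numbered 3. The pigment cell gene *DCT* was at 1472, 1517 and 1329 CPM with CREM siRNA, against 154, 141 and 140 CPM with Control siRNA. *PMEL* had reads in every library, at 1.05, 2.29 and 23.5 CPM with CREM siRNA and 1.79, 1.72 and 5.47 CPM with Control siRNA. Of the 6 melanoma lineage markers tested 5 were higher, and all 8 listed summed to 3142 to 3288 CPM with CREM siRNA and 1153 to 1237 CPM with Control siRNA. Most of this difference came from *DCT*, with means of 1439 and 145 CPM, and *SOX10*, with means of 1383 and 866 CPM. Of 6 markers of epithelial, blood and endothelial cells, *KRT19*, *CD3E* and *PECAM1* were at 0 in all libraries, and the summed level of the 6 was 0.723 to 1.15 CPM with CREM siRNA and 9.28 to 10.3 CPM with Control siRNA, nearly all of it from *PTPRC*. The part of these markers in the results was not tested. By limma with Benjamini-Hochberg adjustment (threshold 0.05), 74.2% of all genes passed, 37.5% higher and 36.7% lower with CREM siRNA, so a small change that passes is common in these libraries. These calls numbered 5071 higher and 4966 lower. After setting *GAPDH* equal in every library they were 6376 and 3315, and after doing so for a panel of other reference genes they were 6759 and 3750. Under these rescalings, called *GAPDH* and panel scaling from here on, the median gene shifted by 0.18 and 0.16 on the log2 scale. *GAPDH* itself was at 1298, 1310 and 1501 CPM with CREM siRNA, against 1517, 1591 and 1586 CPM with Control siRNA. Of the 18 panel genes 9 were lower, 5 higher and 4 did not pass, with a median log2 fold change of -0.17. Neither reference was therefore constant in the deposited values.

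DNA topoisomerases relieve the twisting and tangling that arise when the strands of DNA are parted or copied. Type I enzymes cut a single strand, and among them TOP1 works in the nucleus ahead of polymerases, TOP1MT works in mitochondria, and TOP3A and TOP3B pass single strands through each other. Type II enzymes cut both strands and pass another duplex through the gap. TOP2A is made in proliferating cells and parts sister chromatids before mitosis, whereas TOP2B is found in resting and dividing cells alike and acts at transcribed genes. Ki-67 coats mitotic chromosomes, keeps them apart from each other and is stained in pathology as a marker of cells in cycle.

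*TOP2A* (chr17:40388516-40417950, minus strand, GRCh38) fell the most of the topoisomerase genes after CREM knockdown. It was measured at 31.4, 29.3 and 32.1 CPM in the CREM siRNA libraries, against 379, 363 and 379 CPM in the Control siRNA libraries. All 3 CREM siRNA libraries lay below all 3 Control siRNA libraries, with no overlap. The level with CREM siRNA was 8.28% of that with Control siRNA, or 12.1-fold lower on the means. The log2 fold change was -3.55 on the scale of log2(CPM + 1), with a standard error of 0.0539 and an adjusted p of 4.46e-16 from limma. The reads recovered from these values were 929, 716 and 800 with CREM siRNA and 6566, 8888 and 9020 with Control siRNA. By log2 fold change *TOP2A* was number 72 from the lowest of the 13536 genes tested. In RNA of whole cultures, fewer cycling cells and less *TOP2A* RNA in each of them cannot be told apart.

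*MKI67* (chr10:128096659-128126385, minus strand) fell by a similar amount. Its 3 CREM siRNA libraries had 25.9, 24.3 and 27.4 CPM, against 344, 316 and 298 CPM with Control siRNA. The groups did not overlap, and the spread between Control siRNA libraries (SD 23.2 CPM, n = 3) was small beside the difference. The remaining level was 8.10% of the Control siRNA mean, and its log2 fold change was -3.58, with a standard error of 0.0638 (adjusted p = 1.87e-15 by limma). It stood at number 68 from the lowest. Falls of this order were rare, since 1.24% of the genes tested passed with a log2 fold change of -3 or less.

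**Figure D1:**
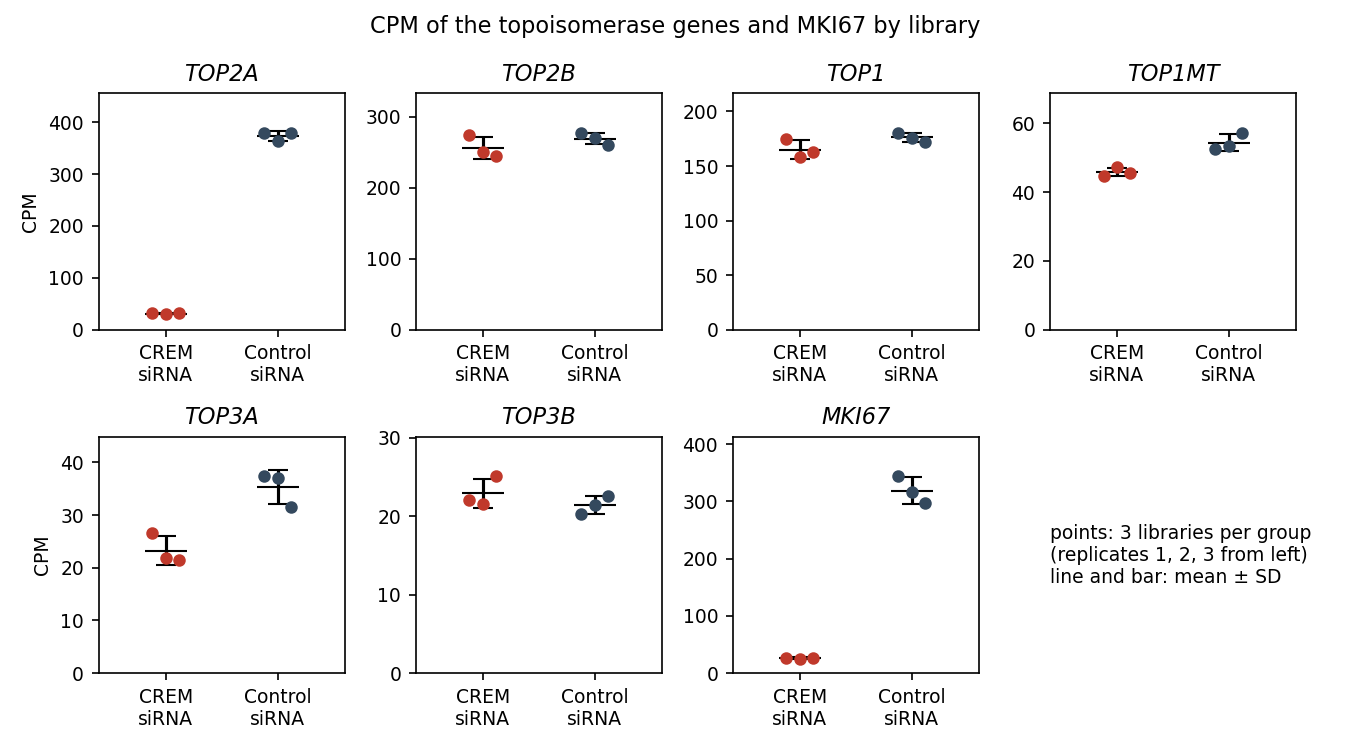
CPM of each member by library, with CREM siRNA (red) left of Control siRNA (dark), where points are libraries and the line and bar give the mean ± SD of 3 libraries on axes that start at 0. *TOP2A* and *MKI67* stood near 30.9 and 25.8 CPM with CREM siRNA against 374 and 319 CPM with Control siRNA, whereas the values of *TOP2B*, *TOP1* and *TOP3B* overlapped between the groups.

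The ratio of the 2 genes to each other overlapped between the groups. Per length, in RPKM (the CPM divided by a length for each gene), *MKI67* was at 0.369, 0.371 and 0.381 times the level of *TOP2A* with CREM siRNA and at 0.406, 0.389 and 0.351 times with Control siRNA. The Control siRNA values spanned those with CREM siRNA. The log2 ratio of *MKI67* to *TOP2A* differed by -0.030 between CREM siRNA and Control siRNA (exact permutation test, two-sided, p = 0.7, and 0.7 after adjustment over the 4 ratios tested), and by 0.015 without Control siRNA replicate 1. The gene whose profile over the 6 libraries was most like that of *MKI67* was *TOP2A* itself, among 11481 genes with a mean of at least 5 CPM. The root mean square difference between their centred log2(CPM + 1) values was 0.0646. *CEP55*, which acts at the final cut between daughter cells, came next at 0.0662. The nearest to *TOP2A* were *PKMYT1*, the kinase that holds back CDK1 (0.0273), *UHRF1*, which guides maintenance of DNA methylation (0.0484), and *SPAG5*, a spindle protein (0.0495). These likenesses rest mainly on the difference between the groups, which all of these genes share. *UHRF1* (1.08 against 22.6 CPM) and *PKMYT1* (2.98 against 45.2 CPM) were low with CREM siRNA. The added 1 makes changes of such genes smaller, so their nearness to *TOP2A* depends on it. For the other members the nearest profiles were *RANBP2* (*TOP2B*, 0.0100), *METTL2B* (*TOP1*, 0.0165), *RNF166* (*TOP1MT*, 0.0151), *ZNF551* (*TOP3A*, 0.0309) and *VPS16* (*TOP3B*, 0.0262).

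The 250 bases before the RefSeq start sites (GRCh38.p14) of *TOP2A* and *MKI67* are shown, with those of *TOP2B*, the paralog of *TOP2A*. A link between these sequences and the changes was not tested. Each lies on the minus strand, *TOP2A* at chr17:40417897-40418146, *MKI67* at chr10:128126424-128126673 and *TOP2B* at chr3:25664908-25665157. Capitals mark CCAAT boxes (CCAAT, or ATTGG on the other strand), the cell cycle homology region known as CHR (TTTGAA or TTCAAA) and the core of a cAMP response element (TGACG or CGTCA).
TOP2A: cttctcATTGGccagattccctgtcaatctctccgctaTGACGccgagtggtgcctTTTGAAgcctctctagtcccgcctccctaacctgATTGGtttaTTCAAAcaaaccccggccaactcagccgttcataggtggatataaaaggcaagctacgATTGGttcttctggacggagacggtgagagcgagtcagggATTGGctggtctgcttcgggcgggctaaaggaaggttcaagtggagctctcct
MKI67: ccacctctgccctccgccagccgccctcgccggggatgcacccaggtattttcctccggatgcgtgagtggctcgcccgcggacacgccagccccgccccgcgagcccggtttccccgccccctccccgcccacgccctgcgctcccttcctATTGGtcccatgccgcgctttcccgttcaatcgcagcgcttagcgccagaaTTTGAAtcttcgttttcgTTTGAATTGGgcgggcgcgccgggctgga
TOP2B: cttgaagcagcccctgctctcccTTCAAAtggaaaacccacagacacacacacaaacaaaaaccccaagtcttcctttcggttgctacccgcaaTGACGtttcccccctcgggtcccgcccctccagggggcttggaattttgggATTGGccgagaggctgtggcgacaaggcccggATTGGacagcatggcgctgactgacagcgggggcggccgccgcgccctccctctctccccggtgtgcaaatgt

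CCAAT boxes bind the factor NF-Y, the CHR is the element through which MuvB complexes act on genes of G2 and mitosis, and the cAMP response element is the site of CREM and its relatives. The window of *TOP2A* held 4 CCAAT boxes, 2 CHR matches and 1 core of a cAMP response element. Of all 35116 windows of this length before RefSeq starts, 0.874% held at least 4 CCAAT boxes and 1.72% held at least 2 CHR matches. The window of *MKI67* held 2 CCAAT boxes and 2 CHR matches, of which the CHR nearer the start shares its last base with a CCAAT box, and no core of a cAMP response element. At least 2 of each were found in 0.125% of all windows, that is in 44 of them. The cut-offs of 4 and 2 equal the counts found in the windows of *TOP2A* and *MKI67*, so these shares describe the windows and are no test. *TOP2B* had 2 CCAAT boxes, 1 CHR match and 1 core of a cAMP response element before this start, and none of these before its other start. A core of a cAMP response element was found in 21.2% of windows, and *TOP1* had 1 as well. The windows of *TOP3A* and *TOP3B* held none of the 3 motifs. The full element TGACGTCA, present in 1.65% of all windows, and the E2F motif TTTNGCGC, present in 1.51%, were not matched in any window of the 6 members searched. The window of *TOP1MT* was not analysed here. A match is a run of letters and was not tested for binding.

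**Figure D2:**
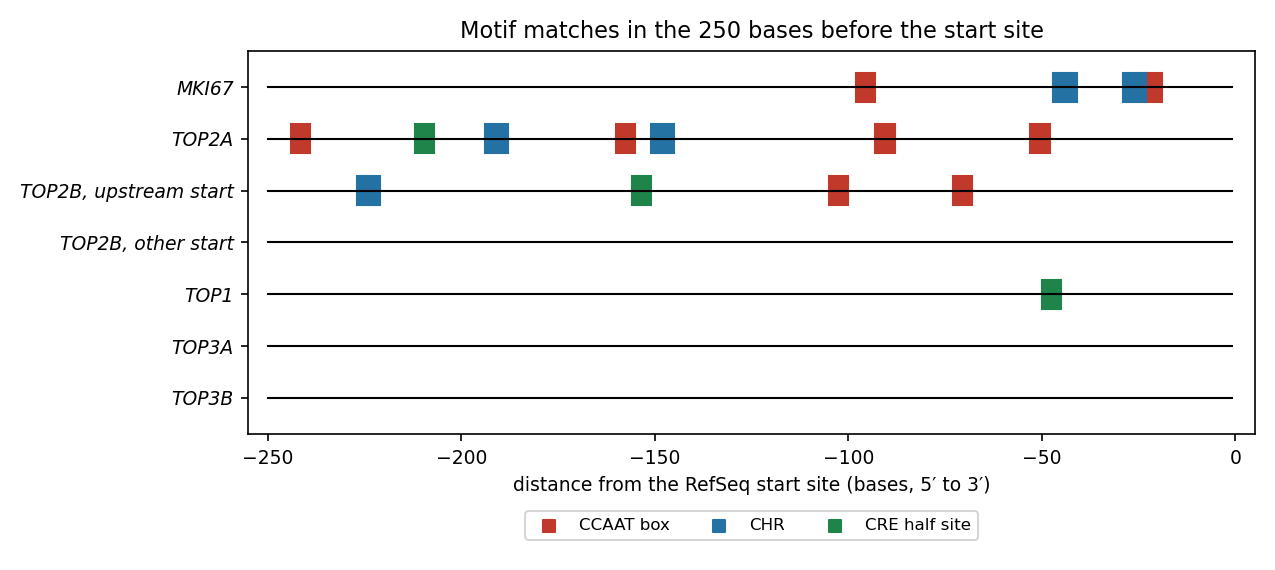
Motif matches on both strands in the 250 bases before the RefSeq start sites of 6 members, by distance from the start in bases, where *TOP2B* has 2 starts. *TOP2A* held 4 CCAAT boxes and 2 CHR matches and *MKI67* 2 of each, against 2 and 1 before the upstream start of *TOP2B*.

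*TOP2B* (chr3:25597905-25664907, minus strand), the other type II enzyme, was at 274, 250.2 and 245 CPM with CREM siRNA and at 277, 270.0 and 261 CPM with Control siRNA. The groups overlapped, since CREM siRNA replicate 1 lay above the lower Control siRNA libraries. The log2 fold change of *TOP2B* was -0.072 (adjusted p = 0.268 from limma). Its 95% interval ran from -0.19 to 0.05, which corresponds to a change between -12.6% and 3.56%. Under *GAPDH* and panel scaling the value turned positive, at 0.12 and 0.10, and did not pass. Compared within a library, the paralogs differed widely. *TOP2A* was at 0.115, 0.117 and 0.132 times the RPKM of *TOP2B* in the CREM siRNA libraries, against 1.37, 1.35 and 1.46 times in the Control siRNA libraries. *TOP2B* was the more abundant within every CREM siRNA library, and *TOP2A* within every Control siRNA library. The log2 ratio differed by -3.52 (exact permutation test, two-sided, p = 0.1, the smallest that 3 libraries against 3 allow, and 0.2 after adjustment over the 4 ratios).

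*TOP1* (chr20:41028818-41124487, plus strand), the main nuclear type I enzyme and the target of camptothecins, was at 175, 158 and 163 CPM with CREM siRNA and at 180.4, 176 and 172 CPM with Control siRNA. The highest CREM siRNA library lay within the range of the Control siRNA libraries. The log2 fold change of *TOP1* was -0.095 (95% interval -0.21 to 0.021, adjusted p = 0.128 from limma). Without CREM siRNA replicate 1 it was -0.14 and passed (adjusted p = 0.0401 from limma), and it was 0.099 and 0.081 under *GAPDH* and panel scaling, where it did not pass. With the replicate number as a block the same value of *TOP1* passed (adjusted p = 0.0331 from limma). *TOP1P2*, a pseudogene that can share reads with *TOP1*, was at 7.03, 5.56 and 4.94 CPM with CREM siRNA and at 5.71, 6.66 and 6.56 CPM with Control siRNA. *PLCG1-AS1* overlaps *TOP1* on the opposite strand and had 14 to 24 reads in a library.

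*TOP1MT*, the mitochondrial enzyme, was slightly lower after knockdown. Its values were 44.8, 47.2 and 45.5 CPM with CREM siRNA, against 52.6, 53.3 and 57.2 CPM with Control siRNA. The groups did not overlap. The log2 fold change was -0.24 (95% interval -0.36 to -0.12, adjusted p = 0.00137 from limma), and it was -0.050 and -0.068 under *GAPDH* and panel scaling, where it no longer passed (adjusted p = 0.667 and 0.299 from limma). The log2 ratio of *TOP1* to *TOP1MT* in RPKM was 0.84 ± 0.111 with CREM siRNA and 0.69 ± 0.0955 with Control siRNA (SD, n = 3 each). These overlapped, and their difference was 0.15 (exact permutation test, two-sided, p = 0.2).

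*TOP3A* (chr17:18271428-18315007, minus strand), which with its partners takes apart crossed DNA strands after recombination and also serves mitochondrial DNA, fell by a modest amount. It was at 26.5, 21.8 and 21.4 CPM with CREM siRNA, against 37.3, 37.0 and 31.6 CPM with Control siRNA. Every CREM siRNA library was below every Control siRNA library, and the spread within each group was wider than for *TOP1MT*. The level fell to 65.9% of the Control siRNA mean. The log2 fold change was -0.58 (95% interval -0.77 to -0.40, adjusted p = 2.52e-05 from limma), and it passed under *GAPDH* and panel scaling as well, at -0.40 and -0.41.

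*TOP3B* (chr22:21957025-21982816, minus strand), the paralog that acts on RNA as well as on DNA, did not pass. Its libraries had 22.0, 21.6 and 25.1 CPM with CREM siRNA and 20.3, 21.4 and 22.6 CPM with Control siRNA, and the groups overlapped. The log2 fold change was 0.090 (95% interval -0.072 to 0.25, adjusted p = 0.296 from limma). Under *GAPDH* and panel scaling it was 0.28 and 0.26 and passed (adjusted p = 0.0152 and 0.0063 from limma). *TOP3A* was at 1.15, 0.968 and 0.818 times the RPKM of *TOP3B* with CREM siRNA, against 1.76, 1.65 and 1.34 times with Control siRNA. These ratios did not overlap, and the log2 difference of -0.70 is that between the paralogs within a library, which no scaling of libraries can alter (exact permutation test, two-sided, p = 0.1, and 0.2 after adjustment over the 4 ratios). A noncoding gene, *AC245452.1*, overlaps *TOP3B* on the opposite strand and was not analysed here.

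In all, 4 of the 7 members fell (*TOP2A*, *MKI67*, *TOP3A* and *TOP1MT*), none rose and 3 did not pass (*TOP1*, which passed with the replicate block, *TOP2B* and *TOP3B*), where 36.7% of all genes tested were lower. The same 4 had groups without overlap, as 76.2% of all genes tested did. The median log2 fold change of the members was -0.24, beside 0.01 over all genes tested. Relative to the median of all genes under each scaling, the values of *TOP1*, *TOP1MT* and *TOP3B* hardly moved, at -0.10, -0.25 and 0.08 as deposited and at -0.09, -0.24 and 0.08 under *GAPDH* scaling.

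**Figure D3:**
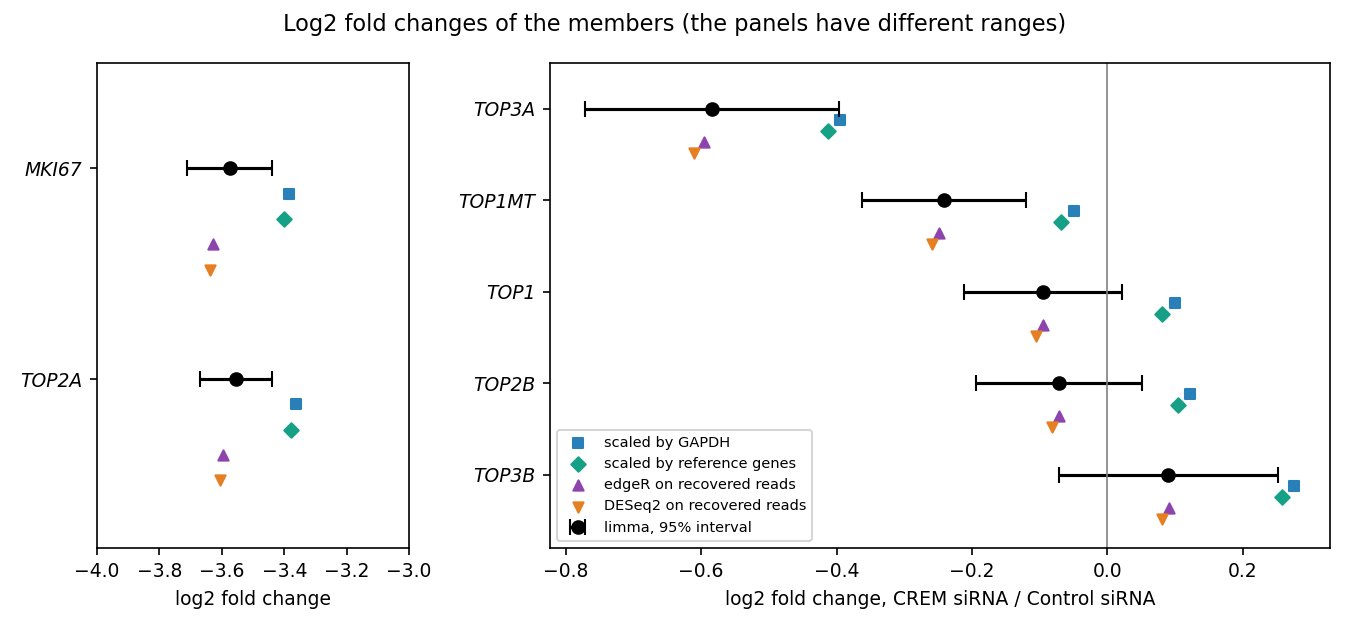
Log2 fold change of each member (CREM siRNA over Control siRNA), with the 95% interval from limma in black and the values under other scalings and count tests as coloured symbols, in panels with different ranges. *MKI67* and *TOP2A* stayed far below 0 under each, at -3.58 and -3.55 in the limma test, and *TOP1* and *TOP2B* changed sign under *GAPDH* and panel scaling.

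The order of the topoisomerase genes by level changed with the fall of *TOP2A*. Per length, the order with CREM siRNA was *TOP2B* (43.5 ± 2.65 RPKM), *TOP1* (30.4 ± 1.58), *TOP1MT* (16.9 ± 0.466), *TOP3B* (5.73 ± 0.472), *TOP3A* (5.57 ± 0.680), *TOP2A* (5.27 ± 0.251) and *MKI67* (1.97 ± 0.118; SD, n = 3 for each). Neighbours overlapped between *TOP3B* and *TOP3A* and between *TOP3A* and *TOP2A*, so the order among these genes is not set by the data. With Control siRNA the order was *TOP2A* (63.6 ± 1.57 RPKM), *TOP2B* (45.7 ± 1.41), *TOP1* (32.5 ± 0.735), *MKI67* (24.3 ± 1.77), *TOP1MT* (20.1 ± 0.916), *TOP3A* (8.45 ± 0.771) and *TOP3B* (5.36 ± 0.285; SD, n = 3 for each), and no neighbours overlapped. Among all genes of the table, *TOP2A* was number 8205 by mean RPKM with CREM siRNA and number 973 with Control siRNA.

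Summed over the 6 topoisomerase genes, the level was 112, 105 and 105 RPKM with CREM siRNA, against 178, 174 and 175 RPKM with Control siRNA. *TOP2A* made up 4.75, 4.76 and 5.20% of this sum with CREM siRNA, against 36.2, 35.5 and 36.9% with Control siRNA. Its share was lower by 31.3 percentage points (exact permutation test, two-sided, p = 0.1, the smallest possible). *TOP2B* became the largest part, at 40.5 ± 0.934% with CREM siRNA and 26.0 ± 0.621% with Control siRNA (SD, n = 3 each). Without *TOP2A*, the sum of the other genes was 107, 99.7 and 99.8 RPKM with CREM siRNA, against 114, 112 and 110.4 RPKM with Control siRNA. This is 91.2% of the Control siRNA mean.

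**Figure D4:**
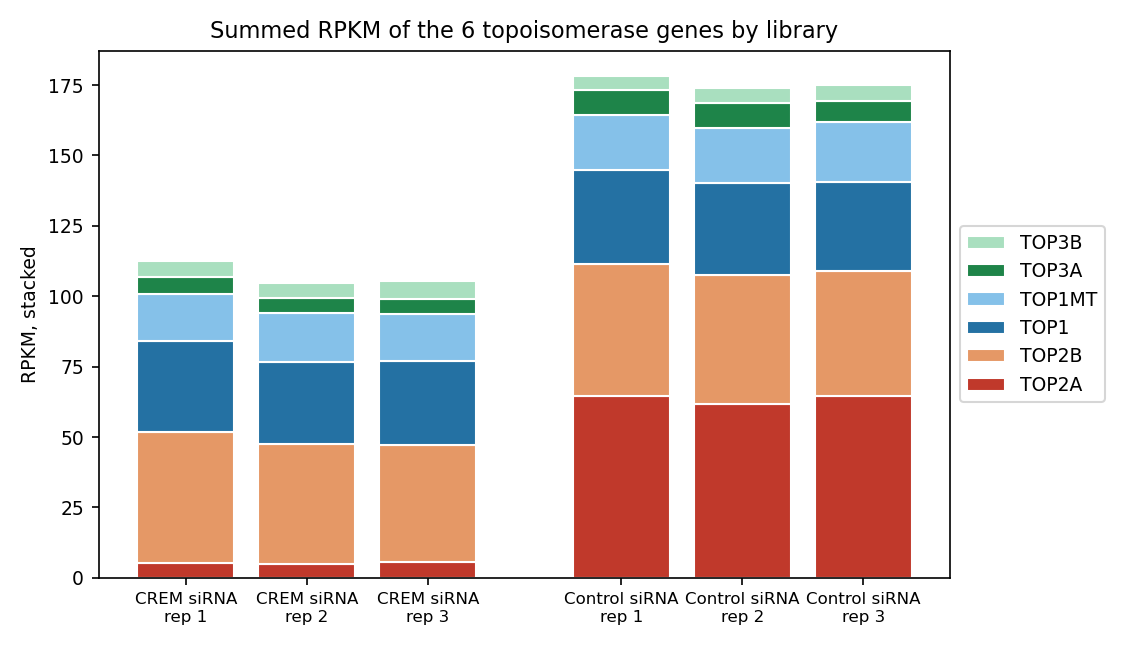
RPKM of the 6 topoisomerase genes stacked by library, with the 3 CREM siRNA libraries left of the 3 Control siRNA libraries. The sum was 105 to 112 RPKM with CREM siRNA against 174 to 178 RPKM with Control siRNA, and *TOP2A* (red, at the bottom) made most of the difference.

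TOP3A works in a complex with the helicase BLM and the proteins RMI1 and RMI2, and 5 of 6 genes of this complex and of related bridge and fork proteins were lower, with 1 higher, where 36.7% of all genes tested were lower and 37.5% higher. *BLM* was at 5.75, 5.28 and 5.38 CPM with CREM siRNA, against 37.3, 37.6 and 38.3 CPM with Control siRNA, and its log2 fold change was -2.58 beside -0.58 for *TOP3A* (adjusted p = 1.59e-13 for *BLM* from limma). *RMI1* and *RMI2* fell by 1.58 and 2.00 on the log2 scale. *ERCC6L*, the gene of PICH, which coats ultrafine bridges in anaphase together with BLM, fell by 3.32, and *FANCM*, a translocase that recruits this complex to forks, by 1.79. *RECQL5*, a helicase that binds TOP2A and RNA polymerase II, was the gene that rose, at 52.4, 49.5 and 54.0 CPM with CREM siRNA, against 35.0, 35.3 and 36.9 CPM with Control siRNA. The list had a median log2 fold change of -1.90, and no call in it changed under *GAPDH* or panel scaling.

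Of 4 genes of TOP3B partners 1 rose and 3 did not pass, with a median of 0.11, where 37.5% of all genes tested were higher. With the replicate number as a block 2 were higher. *FXR1*, an RNA-binding protein, was higher at 433, 427 and 409 CPM with CREM siRNA, against 341, 355 and 343 CPM with Control siRNA (log2 fold change 0.29, adjusted p = 1.49e-04 from limma). *TDRD3*, the scaffold that ties TOP3B to messenger RNPs, *FMR1* and *FXR2* did not pass, at 0.12, -0.06 and 0.10. Under *GAPDH* or panel scaling 3 of the 4 were higher and *FMR1* turned positive without passing. Among all genes 6376 of 13549 were higher under *GAPDH* scaling and 6759 of 13547 under panel scaling. The difference between the lists of TOP3A and TOP3B was not tested.

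When a topoisomerase stays trapped on DNA it has to be removed, and of 13 genes of this repair 5 fell, 2 rose and 6 did not pass, with a median of -0.13. These shares are close to or below the 36.7% lower and 37.5% higher among all genes tested. *TDP1*, the enzyme that frees DNA from TOP1, was at 15.5, 15.1 and 14.2 CPM with CREM siRNA, against 30.2, 32.9 and 30.7 CPM with Control siRNA (log2 fold change -1.02, adjusted p = 3.83e-09 from limma). *TDP2*, which does the same for TOP2, was at 34.2, 30.2 and 34.1 CPM with CREM siRNA and at 33.6, 33.0 and 33.9 CPM with Control siRNA. The values of *TDP2* overlapped, with a 95% interval of the log2 fold change from -0.17 to 0.11. *PARP1*, which senses DNA breaks, rose to 680.0, 602 and 616 CPM with CREM siRNA, against 367, 342 and 331 CPM with Control siRNA (log2 fold change 0.87, adjusted p = 6.42e-09 from limma). Of the factors that trim broken ends, *MRE11* and *RBBP8* fell by 0.98 and 0.81, *NBN* rose by 0.23 and *RAD50* was at -0.077 without passing, and *TDP2* and *RAD50* turned positive under *GAPDH* and panel scaling without passing. *XRCC1*, a scaffold of single-strand break repair, fell by 0.33 but did not pass under either scaling.

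Genes that copy and transcribe mitochondrial DNA, the place of work of TOP1MT, were split, with 6 of 11 lower, 4 higher and 1 that did not pass, and a median of -0.12. Among all genes tested 36.7% were lower and 37.5% higher, so the share of higher genes is near that of the background. With any 1 library left out 5 were lower. *TFAM*, which packs mitochondrial DNA, was at 33.0, 34.7 and 31.2 CPM with CREM siRNA, against 61.9, 60.9 and 62.3 CPM with Control siRNA (log2 fold change -0.89). *POLRMT*, the mitochondrial RNA polymerase, and *TFB1M*, an rRNA methyltransferase, fell by 0.80 and 1.42. *TFB2M*, the factor that opens the promoter for POLRMT, rose by 0.51, and *TWNK*, the mitochondrial helicase, by 0.42. The calls of *POLG* and *SSBP1*, at -0.12 and -0.29, were lost under both scalings, where *POLG* turned positive.

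Of 13 genes of Ki-67 partners and of the chromosome periphery, 10 fell, 1 rose and 2 did not pass, with a median of -0.30, where 36.7% of all genes tested were lower and 37.5% higher. *KIF15*, a spindle kinesin that binds Ki-67, was at 1.79, 2.50 and 1.81 CPM with CREM siRNA, against 45.7, 43.4 and 45.4 CPM with Control siRNA (log2 fold change -3.93, adjusted p = 3.77e-14 from limma). *CDCA2*, which like Ki-67 brings protein phosphatase 1 to chromosomes as mitosis ends, was at 10.1, 9.70 and 9.72 CPM with CREM siRNA, against 96.0, 95.8 and 93.9 CPM with Control siRNA. Its log2 fold change was -3.15 (adjusted p = 2.49e-15 from limma). *CBX5*, the heterochromatin protein HP1 alpha, fell by 2.29, and its relatives *CBX1* and *CBX3* had log2 fold changes of -0.56 and -0.37. *NIFK*, a nucleolar protein that binds the Ki-67 forkhead-associated domain, was at 0.05 and *NPM1*, of the nucleolus and the chromosome periphery, at 0.06, and neither passed. Under *GAPDH* and panel scaling 5 and 6 genes of this list were lower and 3 were higher, *NIFK* and *NPM1* among the higher ones. Among all genes 3315 of 13549 were lower and 6376 higher under *GAPDH* scaling. Under panel scaling 3750 of 13547 were lower and 6759 higher. Without CREM siRNA replicate 2 the call of the higher gene, *PES1*, was lost.

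**Figure D5:**
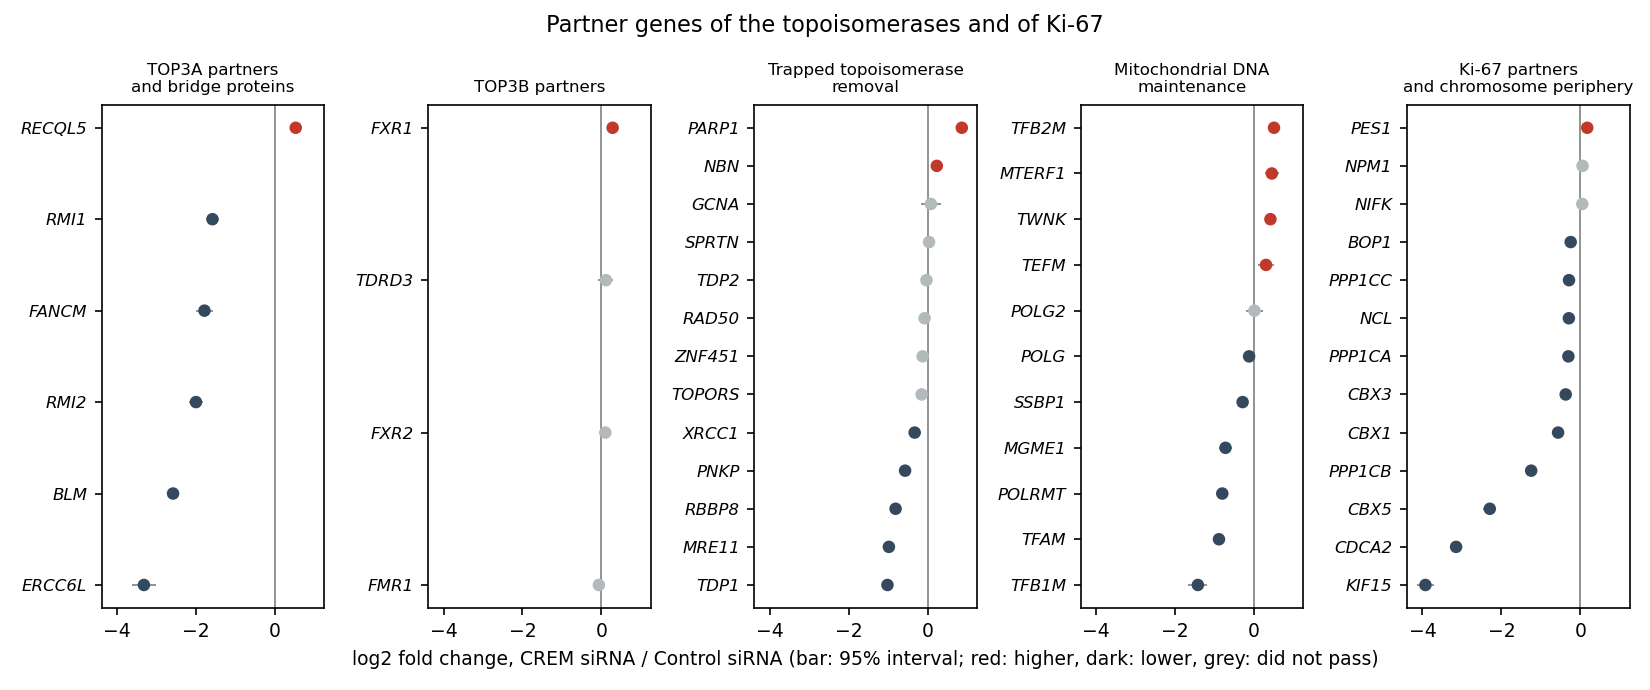
Log2 fold changes (CREM siRNA over Control siRNA) of the 47 partner genes in 5 lists, with 95% intervals from limma, where red points were higher, dark points lower and grey points did not pass. *KIF15*, *ERCC6L*, *CDCA2* and *BLM* lay furthest to the left at -3.93, -3.32, -3.15 and -2.58, and *PARP1* furthest to the right at 0.87.

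*TOP6BL*, listed in the table under its older symbol *C11orf80*, encodes a relative of topoisomerase VI that acts in meiosis. It was at 11.5, 11.7 and 11.7 CPM with CREM siRNA, against 14.6, 13.5 and 17.9 CPM with Control siRNA (log2 fold change -0.36, adjusted p = 0.00312 from limma). The groups did not overlap, though the gene is low and its Control siRNA libraries were spread over 2.27 CPM (SD, n = 3).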

How the data were processed

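RNA of CHL-1 cells was sequenced in 3 CREM siRNA and 3 Control siRNA libraries after an Illumina stranded mRNA preparation. The authors deposited values in CPM and in RPKM, where RPKM uses 1 length per gene, and the submitters' processing notes name R 3.6.1 and hg38. No aligner, counting program or use of strand was given in the sources used here. *GAPDH* differed between the deposited columns and was lower in each CREM siRNA library than in any Control siRNA library. Reads were recovered by dividing the CPM of a library by a step fitted from its smallest value above 0, taken as 1 read. Of the CPM values divided in this way, 100% lay within 0.001 of a whole read. The CPM columns summed to between 973557 and 1007039, so they are not plain shares of all reads, and the factor behind this was not analysed here. The members, gene lists and rules for named genes (all members, all list genes and the 3 nearest profiles of each member) were chosen with earlier results of these data known.

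Each gene with a mean of at least 1 CPM was tested by limma 3.58.1 (lmFit, eBayes with trend and robust variance, R 4.3.3) on log2(CPM + 1), with Benjamini-Hochberg adjustment over 13536 genes and a threshold of 0.05. The added 1 makes changes of low genes smaller. Single values per library were compared by two-sided exact permutation tests. The study's methods call the samples repeated experiments and the columns number them, without saying what the repeats shared, so p-values measure the spread between these experiments in a single line. Counting error was 1.23 to 5.33% of a member's value in the library of its group with the fewest reads of it. Alternatives were other pseudocounts, filters and scalings, RPKM in place of CPM, a linear model with equal variance on unlogged CPM, a replicate block, leaving out libraries, and edgeR 4.0.16 and DESeq2 1.42.0 on the recovered reads, on which edgeR called 5428 genes higher and 5260 lower. Gene positions are those of the GENCODE annotation of GRCh38, and start sites and sequences those of RefSeq for GRCh38.p14.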

Additional observations from a re-analysis of the deposited data

How the results depend on the processing

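*TOP2A*, *MKI67* and *TOP3A* kept their direction and their call in each of the 18 alternatives fitted across genes. Under *GAPDH* scaling and scaling by reference genes *TOP1* turned to 0.099 and 0.081, *TOP2B* to 0.12 and 0.10, *TOP1MT* lost its call at -0.050 and -0.068, and *TOP3B* gained one at 0.28 and 0.26. Both scalings moved the median of all genes by over 0.1, and the other alternatives did not. The partner genes called higher were 9, and 14 with scaling by reference genes. On log2(RPKM + 1) the fold changes of *MKI67* and *TOP2A* were -3.09 and -3.37, since the added 1 weighs more on this scale. The same construction turned the difference of the log2 ratio of *MKI67* to *TOP2A* to 0.28 with 1 RPKM added.

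Libraries of the same replicate number correlated in their deviations at 0.374, 0.054 and 0.265, all above 0. Pairs of different number ran from -0.406 to 0.140, a range that 0.054 lay within and 0.374 and 0.265 lay above. *MLANA* and *TYR* had reads only in the replicates numbered 3 of both groups, and what these libraries shared was not tested. The columns number them as experiments, and whether a number marks a shared day or batch was not settled, so the fit without a block was kept. With the replicate block *TOP1* passed at -0.095 (adjusted p = 0.0331 from limma), 5464 genes were higher and 5286 lower, 2 of the 4 TOP3B partner genes were higher, and no other member changed its call.

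Leaving out each library gave -0.14 to -0.064 for *TOP1*, -0.26 to -0.20 for *TOP1MT*, -3.58 to -3.52 for *TOP2A*, -0.12 to -0.04 for *TOP2B*, -0.68 to -0.53 for *TOP3A*, 0.03 to 0.13 for *TOP3B* and -3.62 to -3.52 for *MKI67*. *TOP1* passed without CREM siRNA replicate 1, and the cause was not tested. The log2 ratio of *MKI67* to *TOP2A* ranged from -0.090 to 0.015. With 3 libraries a group, changes of *TOP1*, *TOP2B* or *TOP3B* within the intervals given could not be resolved.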
